A study of Drosophila melanogaster with 2 samples.

Results

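The miRNA genes of Drosophila melanogaster were examined for binding of Broad (br), a zinc-finger transcription factor, around their hairpins. A miRNA gene was any gene whose symbol in the Ensembl annotation of the dm6 assembly starts with mir-, which gave 262 genes. Of these, 260 lay on the assembled chromosome arms and were analysed, beside 17796 annotated genes on the arms in all. The 2 remaining, both mir-10404 copies on an unplaced scaffold, were not analysed here. The hairpins were 50 to 174 bp long with a median of 92 bp, and fell into 203 clusters when hairpins of 1 strand up to 10000 bp apart were joined. Of these clusters, 22 held several hairpins, 79 hairpins in all, and the largest held 12.

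Chromatin immunoprecipitation (ChIP) was done with an antibody against GFP on whole wandering larvae of the third instar, males and females pooled, which stably carry a transgene for the br-RJ product with GFP at its C-terminus. There was 1 group with 2 biological replicates and no other condition, so nothing here compares a treatment or genotype. The chromatin was sheared by sonication to 200 to 800 bp, and all tissues of the larva contributed to each value, so a peak in few cells and a weak peak in many cannot be told apart. The authors deposited a set of peaks that passed their reproducibility step over both replicates (the irreproducible discovery rate, IDR), here called the optimal set, of 6635 peaks, and a pooled list of 30000 peaks of any strength. Each peak has a summit, its highest position, and a signal, the authors' measure of its strength, whose scale is not stated and which ranks peaks within 1 list only.

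MiRNA genes are transcribed as long primary transcripts from which the nuclear enzyme Drosha cuts the hairpin, and Dicer-1 in the cytoplasm then releases the mature miRNA of the hairpin. The mature miRNA pairs with messenger RNAs mainly through its seed, the stretch from base 2 to base 8. A start site of a miRNA gene can therefore lie several kilobases before the hairpin, in a non-coding host transcript or in a protein-coding host, while mirtrons are hairpins made by splicing of a short intron. Broad is an early gene of the response to the steroid hormone ecdysone and directs the larva to metamorphosis. The let-7 complex, which makes miR-100, let-7 and miR-125, is induced around metamorphosis, and both ecdysone and Broad have been linked to its expression and to that of miR-34.

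The mature miRNAs of the loci on which the results turn are shown first, because shared seeds group them. They were read from the dm6 assembly at the mature positions of the RefSeq annotation, 5′ to 3′, with the seed in capitals. The members of the let-7 complex have different seeds, whereas miR-279 and miR-996 share GACUAGA, and miR-2a, miR-13a and miR-11 share AUCACAG.
mir-279-3p (chr3R:29215651-29215672, plus strand): uGACUAGAuccacacucauuaa
mir-996-3p (chr3R:29217244-29217265, plus strand): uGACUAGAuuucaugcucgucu
mir-282-5p (chr3L:3251038-3251061, plus strand): uAGCCUCUacuaggcuuugucugu
mir-9a-5p (chr3L:19565140-19565162, plus strand): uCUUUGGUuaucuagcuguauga
mir-92a-3p (chr3R:25646560-25646581, plus strand): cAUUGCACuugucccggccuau
mir-275-3p (chr2L:7425853-7425875, plus strand): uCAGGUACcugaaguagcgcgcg
mir-305-5p (chr2L:7425979-7426001, plus strand): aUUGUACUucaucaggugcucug
mir-ban-3p (chr3L:642259-642281, plus strand): uGAGAUCAuuuugaaagcugauu
mir-100-5p (chr2L:18471445-18471466, plus strand): aACCCGUAaauccgaacuugug
mir-let7-5p (chr2L:18472044-18472064, plus strand): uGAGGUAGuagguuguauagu
mir-125-5p (chr2L:18472343-18472364, plus strand): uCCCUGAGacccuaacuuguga
mir-34-5p (chr3R:10100952-10100975, plus strand): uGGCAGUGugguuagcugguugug
mir-2a-1-3p (chr2L:19569902-19569924, minus strand): uAUCACAGccagcuuugaugagc
mir-13a-3p (chr3R:15417548-15417569, minus strand): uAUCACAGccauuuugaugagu
mir-11-3p (chr3R:21622504-21622524, minus strand): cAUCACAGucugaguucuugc
mir-1-3p (chr2L:20487496-20487517, plus strand): uGGAAUGUaaagaaguauggag

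The DNA under 5 summits is shown next, since these are the 3 loci with the strongest summits within 5000 bp of a hairpin, the growth regulator bantam (mir-ban in the annotation) and the let-7 complex. They were chosen after their values were seen. Each window reaches 60 bp to either side of the summit, 121 bp in all, on the plus strand of dm6. Capitals mark matches on either strand to the motif AAACAA, to the motif ACTATT, to the motif GAGAG or to the motif TATCGATA. The windows of mir-279, mir-282, mir-9a and mir-100 held none of the 4 motifs in these letters, and the window of mir-ban held 1 match to AAACAA and 1 match to GAGAG.
mir-279 (chr3R:29214381-29214501): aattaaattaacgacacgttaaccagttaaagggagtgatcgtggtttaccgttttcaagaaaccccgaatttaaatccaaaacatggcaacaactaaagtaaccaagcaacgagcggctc
mir-282 (chr3L:3247618-3247738): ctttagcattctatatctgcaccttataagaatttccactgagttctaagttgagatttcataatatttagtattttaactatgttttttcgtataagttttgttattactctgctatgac
mir-9a (chr3L:19560745-19560865): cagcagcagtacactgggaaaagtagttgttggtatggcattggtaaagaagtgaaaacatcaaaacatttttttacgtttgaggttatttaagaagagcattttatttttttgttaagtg
mir-ban (chr3L:640712-640832): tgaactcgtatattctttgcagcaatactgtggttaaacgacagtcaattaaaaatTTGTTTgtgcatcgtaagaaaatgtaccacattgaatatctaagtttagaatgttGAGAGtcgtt
mir-100 (chr2L:18468738-18468858): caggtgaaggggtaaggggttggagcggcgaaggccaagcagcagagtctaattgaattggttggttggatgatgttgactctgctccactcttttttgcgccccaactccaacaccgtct

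The windows of 5 further loci, those with the strongest summits within 500 bp of a hairpin, follow in the same form. The windows of mir-92a, mir-9377 and mir-4962 held AAACAA, and those of mir-275 and mir-966 held ACTATT as its reverse complement. The window of mir-4962 held 5 overlapping or separate matches to GAGAG and covers part of the hairpin itself.
mir-92a (chr3R:25646995-25647115): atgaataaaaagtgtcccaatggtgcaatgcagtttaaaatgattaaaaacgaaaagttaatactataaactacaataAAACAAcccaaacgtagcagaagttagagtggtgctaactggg
mir-275 (chr2L:7425299-7425419): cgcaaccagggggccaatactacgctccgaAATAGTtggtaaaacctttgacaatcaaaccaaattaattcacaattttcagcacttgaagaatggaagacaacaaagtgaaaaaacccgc
mir-966 (chr2L:6046051-6046171): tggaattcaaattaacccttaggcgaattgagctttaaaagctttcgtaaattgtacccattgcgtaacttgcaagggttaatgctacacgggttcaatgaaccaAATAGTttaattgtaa
mir-9377 (chrX:12665537-12665657): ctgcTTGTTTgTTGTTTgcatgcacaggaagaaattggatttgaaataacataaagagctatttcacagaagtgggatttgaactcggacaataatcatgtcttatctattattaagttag
mir-4962 (chrX:3777338-3777458): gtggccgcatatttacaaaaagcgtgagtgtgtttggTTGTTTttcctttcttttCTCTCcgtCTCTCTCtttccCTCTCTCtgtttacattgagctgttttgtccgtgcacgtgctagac

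Over all 144 distinct optimal summits within 5000 bp of a miRNA hairpin, AAACAA was found in 34 of the windows of 121 bp, 23.6%, against 24.4% of the windows at all 6635 optimal summits. ACTATT was in 11 (7.64%, against 9.01% at all summits) and GAGAG in 18 (12.5%, against 15.7%). TATCGATA was in 6 (4.17%, against 1.66%). In windows centred 1000 bp to either side of all summits, the share was 20.5% for AAACAA, 6.30% for ACTATT, 15.1% for GAGAG and 0.362% for TATCGATA. Beside the summits near miRNA genes themselves, the flanking share was 24.0% for AAACAA, 6.25% for ACTATT, 19.1% for GAGAG and 0.347% for TATCGATA. Near miRNA genes the share of TATCGATA was the higher one and rests on 6 windows, and those of the other motifs were close to the shares at all summits. A match is a run of letters and was not tested as a binding site.

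Of the 260 miRNA genes, 99 (38.1%) had an optimal summit within 5000 bp of the hairpin. In 1000 circular shifts, in which the summits of each arm were moved around it together, a mean of 73.7 miRNA genes (28.4%) had one, and the middle 95% of shifts gave 54 to 96. The observed count was 1.34 times the mean of the shifts and just above that range. Other annotated genes under 300 bp, such as tRNA and snoRNA genes, had a summit as close in 44.4% of 868 cases, so the share among miRNA genes was below that of these genes as a whole. Their types differed: 61.0% of 267 snoRNA genes, 46.2% of 290 tRNA genes and 46.7% of 30 snRNA genes had one, as did 36.1% of 183 other non-coding genes and 8.16% of 98 rRNA genes, both below the share of miRNA genes. Genes and shifted positions are not replicates, so these ranges describe the arrangement of summits along the arms and carry no p-value. The shifts ran over whole arms, including long stretches without optimal summits, and did not keep summits close to genes. At mir-2279, for example, the nearest optimal summit was 3174632 bp away. The effect of this on the shift means was not tested.

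Clustered hairpins share their surroundings, and counting each cluster once gave 79 of 203 clusters (38.9%) with an optimal summit, against a mean of 58.4 clusters (28.8%) and a middle range of 44 to 72 in the shifts. The difference from the shifts depended on the window, the peaks and the replicate used. Within 1000 bp, 25 miRNA genes (9.62%) had a summit, against a shift mean of 22.9 and a range of 12 to 36.0. Within 2000 bp there were 47 genes (18.1%), against a mean of 39.2 and a range of 25 to 57, and within 10000 bp there were 137 (52.7%), against a mean of 111 and a range of 88.0 to 136. The counts in the 2 narrow windows lay inside the range of the shifts, and those in the 2 wide windows lay just above it. With peaks at or above the median signal only, 57 genes had a summit within 5000 bp, inside a shift range of 30 to 66. With the strongest peaks of the list of replicate 1 alone, that is without replicate 2, there were 93 genes, inside a range of 55 to 96. With those of replicate 2 alone there were 97, just above a range of 54 to 96. The count of clusters lay above its range in all 3 cases. The median distance from a hairpin to its nearest optimal summit was 9054 bp.

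**Figure D1:**
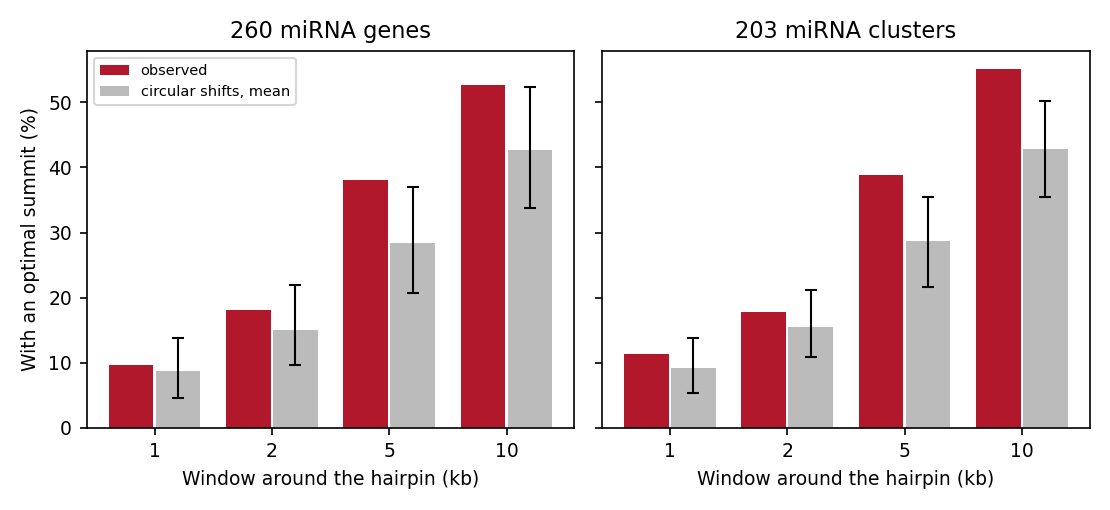
Percentage of miRNA genes (left) and of miRNA clusters (right) with an optimal summit within 1, 2, 5 or 10 kb of the hairpin (x axis), observed (red) and as the mean of 1000 circular shifts (grey), with bars over the middle 95% of the shifts. The observed 38.1% of genes at 5 kb stands above the shift mean of 28.4%, while at 1 kb the observed 9.62% lies within the range of the shifts.

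The 144 distinct summits were 2.17% of the optimal set. Their signals lay between 80.3 and 2102 with a median of 142, against a range of 80.0 to 3635 and a median of 137 over the optimal set. A signal of 500 or more was reached by 10 of them (6.94%), against 405 (6.10%) of all optimal peaks. The summits near miRNA genes were therefore spread over the strength scale much like the set as a whole. Of the 99 genes, 54 had 1 summit, 18 had at least 3, and mir-282 had the most with 7. Per gene, the strongest summit had a median signal of 174.

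Most summits lay upstream, that is, before the hairpin on its own strand. Of the 144 summits, each set against its nearest hairpin, 95 lay upstream, 48 downstream and 1 inside a hairpin, and the upstream share of those outside a hairpin was 66.4%. The shifts gave a mean of 50.6% and a middle range of 39.6% to 61.1%. Of the 10 summits with a signal of at least 500, 7 lay upstream. The strongest summit of the gene lay upstream in 60 of the 99 genes and downstream in 39.

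**Figure D2:**
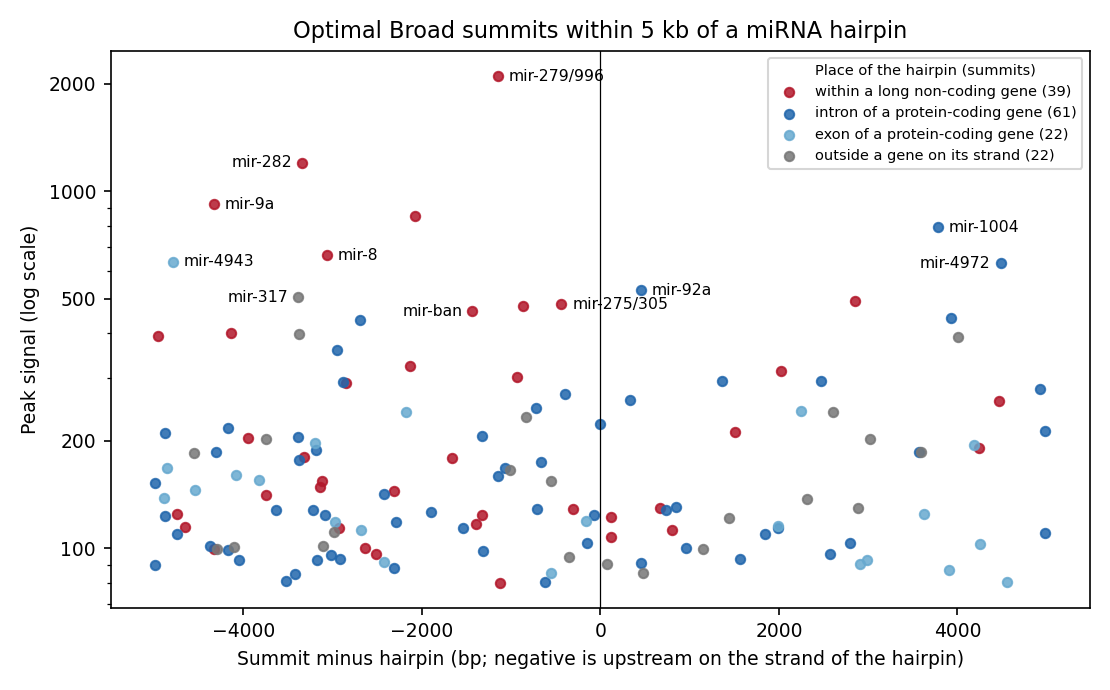
Each point is 1 of the 144 optimal summits, placed by its distance from the nearest miRNA hairpin (x axis, bp, negative values upstream on the strand of the hairpin) and by its signal in the pooled list (y axis, log scale), with colours for the place of the hairpin. The summits of mir-279 (2102), mir-282 (1202) and mir-9a (919) are highest, and all 3 lie upstream of hairpins within long non-coding genes.

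The place of the hairpin was taken from genes of at least 300 bp on the same strand. Of 51 hairpins within a long non-coding gene, 22 (43.1%) had an optimal summit, against 28.5% in the shifts with a range of 11.8% to 49.0%. Of 96 in an intron of a protein-coding gene, 41 (42.7%) had one, against 28.6% with a range of 18.8% to 39.6%. Of 35 in an exon of a protein-coding gene, 14 (40%) had one, against 28.7% with a range of 14.3% to 42.9%. Of 78 outside any gene on their strand, 22 (28.2%) had one, against 27.8% with a range of 12.8% to 44.9%. Hairpins in introns were thus the 1 class whose share lay above the range of the shifts, and hairpins outside genes were at the mean of the shifts. The differences between classes were not tested.

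**Figure D3:**
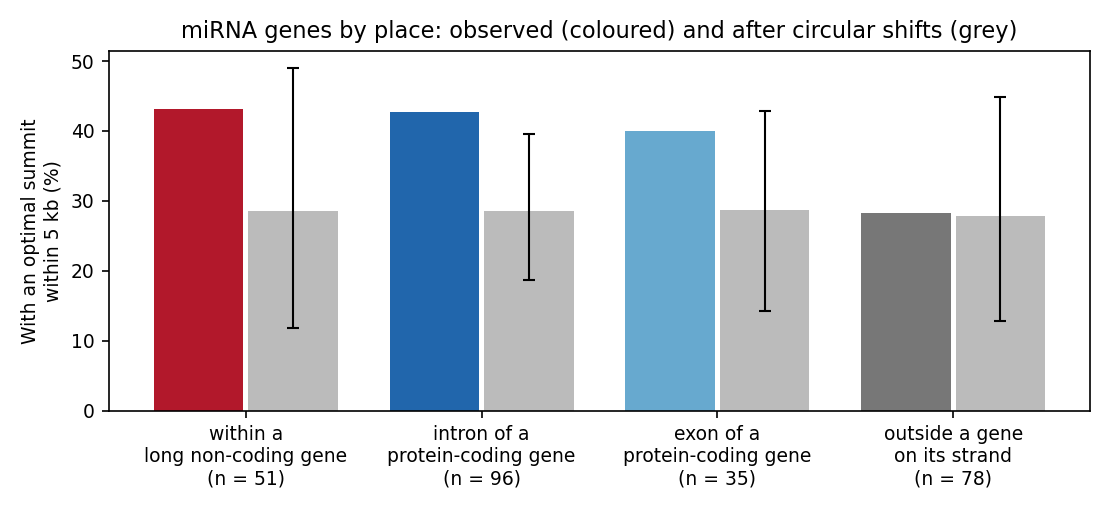
Percentage of miRNA genes with an optimal summit within 5 kb (y axis) for 4 places of the hairpin (x axis), observed (coloured) beside the mean of 1000 circular shifts (grey), with bars over the middle 95% of the shifts. Observed shares are 43.1%, 42.7% and 40% for hairpins within genes and 28.2% for hairpins outside them.

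The upstream share was highest for hairpins in long non-coding genes, with 32 summits upstream and 9 downstream (78.0%), against a shift range of 23.8% to 76.9%. It was 66.7% for introns of protein-coding genes (40 upstream, 20 downstream), against a range of 34.9% to 66.0%. For exons of protein-coding genes it was 59.1% and for hairpins outside genes 58.3%, both inside the range of their shifts. A summit near hairpins of 2 classes counts in both, so these counts add up to more than 144. The strongest summits also stood near hairpins in long non-coding genes, with a highest signal of 2102 there, against 793 in introns, 635 in protein-coding exons and 505 outside genes.

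A hairpin inside a gene can be transcribed from the host's start site, so summits at host start sites were counted for the 182 hairpins within a gene, 74 of which had a host with an optimal summit within 1000 bp of a start site. Of 128 protein-coding hosts, 53 (41.4%) had such a summit, against a share of 24.3% among all 13968 protein-coding genes. Of 37 non-coding hosts, 12 (32.4%) had one, against 17% of all 2365 long non-coding genes. Hosts were longer than other genes, with a median of 14094.5 bp for protein-coding hosts against 2164.5 bp for all protein-coding genes, and had a median of 2 start sites against 1. Non-coding hosts had a median length of 6436 bp against 755 bp, and a median of 1 start site in both. The part of length and of the number of start sites in these shares was not tested. The signals at bound hosts ranged from 82.5 to 797 for protein-coding hosts and from 84.4 to 2102 for non-coding hosts.

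By its nearest annotated start site, each of the 144 summits fell into 1 of 3 groups. This site was within 500 bp and that of the host for 34, within 500 bp and that of another gene for 43, and farther than 500 bp for 67. A summit near a hairpin can therefore belong to a neighbouring gene. The summit 3784 bp after mir-1004, a mirtron in CG43707, had a signal of 793 (413 in replicate 1 and 376 in replicate 2) and lay 228 bp from a start site of bowl, a zinc-finger gene of leg patterning. The summit 3922 bp after mir-1006, a mirtron in VhaSFD, had 443 (238 and 205) and lay 941 bp from a start site of Cyt-c-p, which encodes cytochrome c. The summit of 295 (128 and 165) that lay 3085 bp after mir-11 was 91 bp from a start site of InR, the insulin receptor gene.

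The 2 replicates were called separately by the authors. The optimal set came out of the reproducibility step over both, and it equals the 6635 strongest pooled peaks. A single peak of the set therefore need not have been found in each replicate. The pooled signal rests on both replicates, so their agreement at strong pooled peaks is partly fixed by that choice and is given as a description. The replicate lists, like the pooled list, hold peaks of any strength with background among them, so a partner can be a weak peak. Of the 144 summits, 131 (91.0%) had a summit within 100 bp in both replicate lists, against 6181 (93.2%) of all optimal summits. By the same rule, replicate 1 alone had 6 of the others, replicate 2 alone had 4, and 3 had a partner in neither. With a match within 200 bp, 141 had one in both lists. With only the strongest peaks of each replicate list, 107 had one in both. Over the 131 shared summits, the log2 ratio of replicate 1 to replicate 2 had a median of 0.05 and an SD of 0.46, and 125 were within 2-fold of each other. Each list is on a scale of its own, so a replicate's signal is not set against the pooled one.

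**Figure D4:**
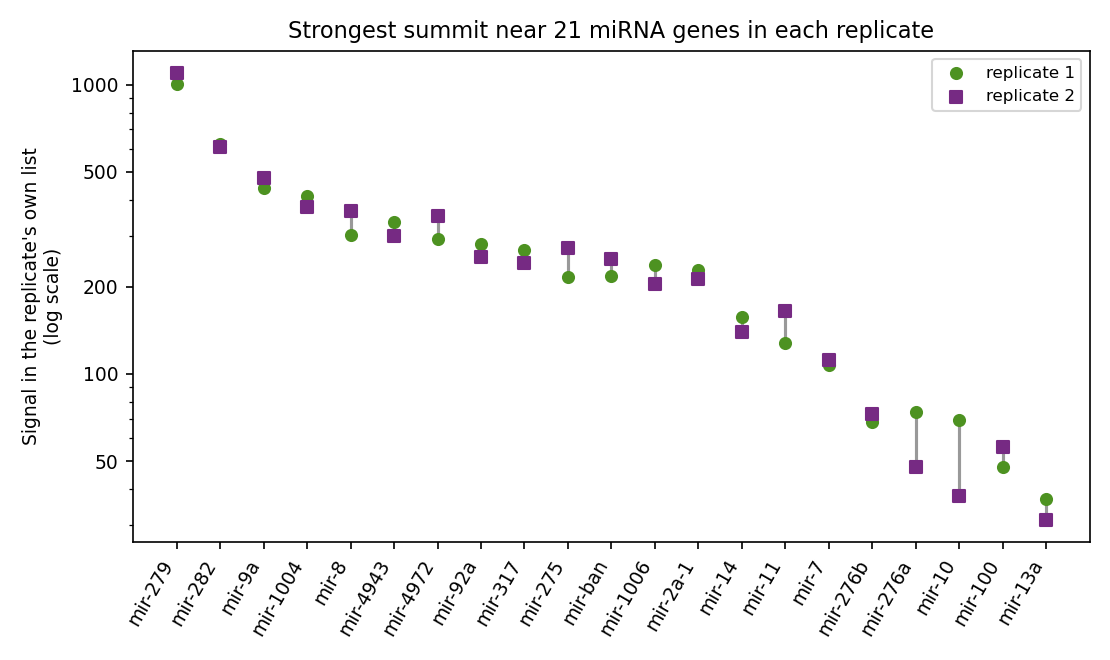
Signal of the strongest optimal summit near 21 miRNA genes (x axis) in replicate 1 (green circles) and replicate 2 (purple squares), each in its own list (y axis, log scale). Both replicates run from mir-279, at 1008 in replicate 1 and 1095 in replicate 2, down to mir-13a, at 37.0 and 31.3.

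The strongest summit near any miRNA gene was that of mir-279 and mir-996, which share a seed; miR-279 limits the formation of neurons that sense carbon dioxide. Their hairpins, at chr3R:29215585-29215684 and chr3R:29217184-29217280 on the plus strand, are in exons of the non-coding gene lncRNA:CR31044, whose start the summit precedes by 121 bp. The pooled signal was 2102, with 1008 in replicate 1 and 1095 in replicate 2, and the peak was number 8 of the pooled list by signal. It lay 1144 bp before mir-279 and 2743 bp before mir-996, and both replicates had it. A weaker summit, with a signal of 129 (71.3 and 62.9), lay 307 bp before mir-279. At 4444 bp after mir-279, a summit of 493 (240 and 255) was 44 bp from a start site of eEF1gamma, a translation elongation factor gene. The third miRNA with this seed, mir-286, a member of a large early embryonic cluster, had no optimal summit.

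At mir-282, at chr3L:3251022-3251118 in an exon of lncRNA:CR43626, 7 optimal summits lay within 5000 bp, more than at any other miRNA gene. The strongest had a signal of 1202 (623 and 608), 3344 bp before the hairpin and 337 bp from a start site of CG43389. The next had 854 (370 and 447), 2072 bp before the hairpin and 390 bp from the start of the host. Farther upstream were summits of 401 and 204, which lie in the same peak interval. The first had a partner within 100 bp in replicate 1 only, at 212, and the second in replicate 2 only, at 202. Those of 149, 123 and 112 complete the group, and the last 2 were 119 bp and 800 bp after the hairpin. The strong upstream summits were thus seen at like strength in both replicates, while 4 of the weaker ones had no partner within 100 bp in at least 1 replicate list.

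At mir-9a, which limits sensory organ precursors by acting on senseless, the hairpin is at chr3L:19565131-19565208 in an exon of lncRNA:CR45916. Its strongest summit had a signal of 919 (440 and 474) and lay 4326 bp upstream, 385 bp from the start of another non-coding gene, lncRNA:CR44676. The summit nearest to the start of the host itself, 24 bp from it, was far weaker, with 96.4 (46.7 and 50.7). Summits of 180 and 155 lay between them. The relatives with the same seed, mir-9b and mir-9c, lie in a cluster in an intron of grp, the checkpoint kinase gene, and had no optimal summit within 5000 bp, although a start site of grp had one with a signal of 386. For mir-9b the nearest summit was 5075 bp away, just outside the window.

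**Figure D5:**
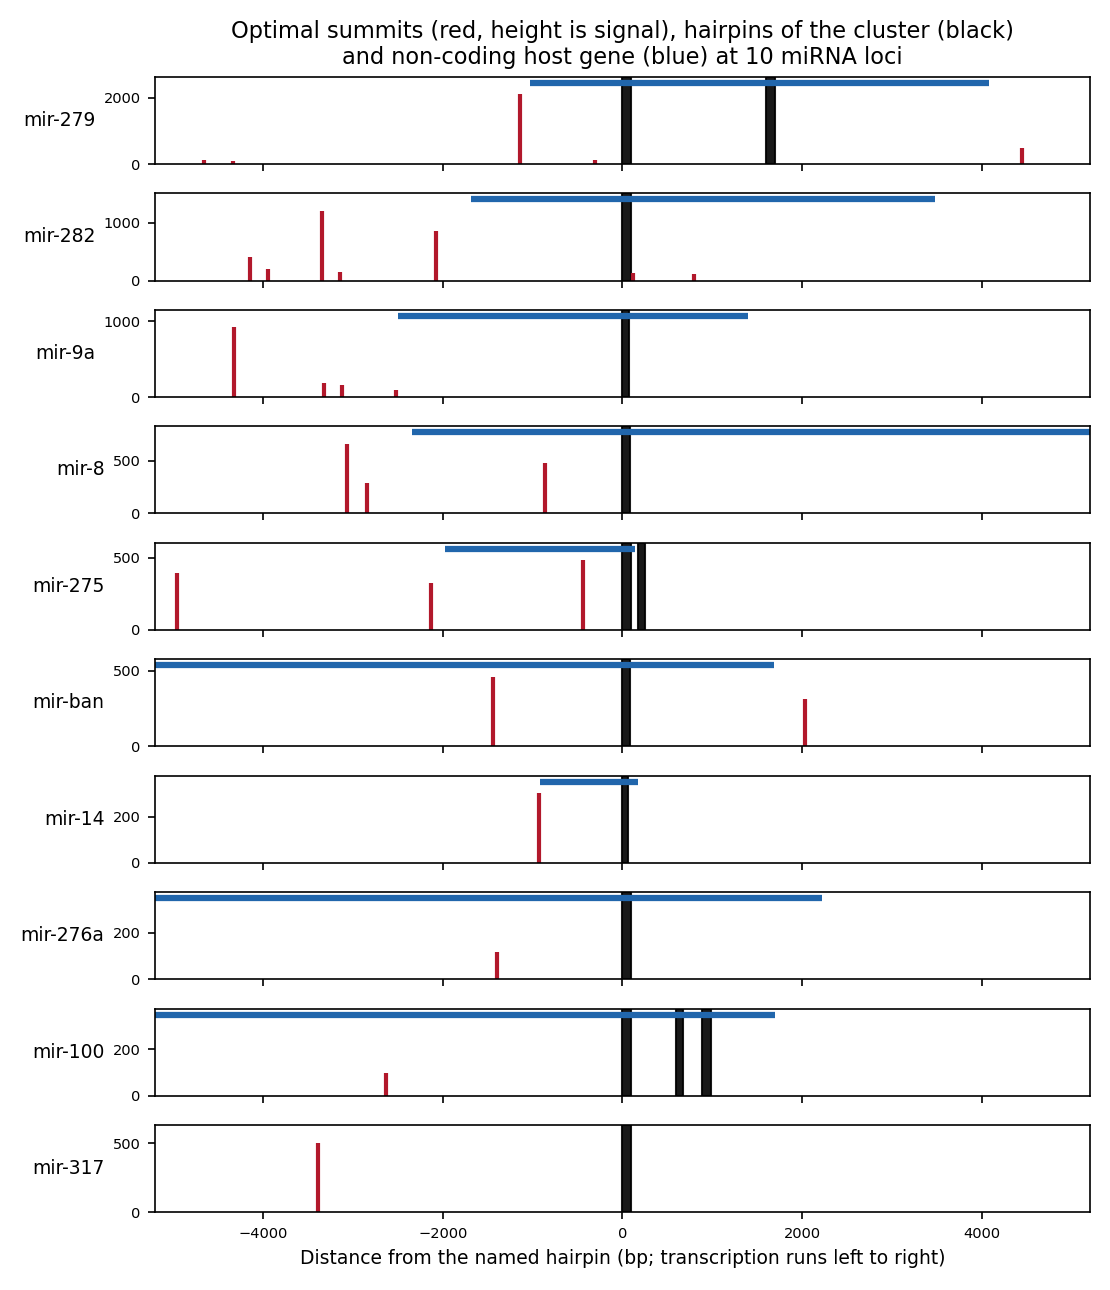
Optimal summits (red bars, height is the pooled signal on the y axis) at 10 miRNA loci, by distance from the named hairpin (x axis, bp, transcription from left to right), with the hairpins of the cluster in black and the non-coding host gene in blue. At mir-279 the summit of 2102 stands at the start of the host, while at mir-100 the summit of 100 lies inside a host that begins outside the plotted range.

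Among 11 miRNAs linked to ecdysone, 7 in 5 clusters (63.6% of the genes) had an optimal summit within 5000 bp. The other 4 had only weaker peaks of the pooled list. Over the 260 miRNA genes this share was 38.1%. The median of their strongest signals was 303. This list and the other lists by role below were drawn up with earlier results of these data known, so their shares are descriptions.

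mir-8, which acts on body size through the fat body and belongs to the miR-200 family, had the strongest summit of the list. Its summit at 3062 bp upstream had a signal of 663 (303 and 364), and that at 865 bp upstream had 478 (242 and 235), 122 bp from a start site of its host lncRNA:CR43650. A summit of 291 (178 and 128) lay between them. mir-14, which limits cell death and fat storage and acts on the ecdysone receptor, had 1 summit, of 303 (157 and 140), 932 bp upstream and 14 bp from the start of lncRNA:CR43651. Both genes thus had a summit with a pooled signal of at least 300 at the start of a non-coding host, and both replicates had it.

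At bantam, which promotes tissue growth and blocks death by acting on hid, and also acts on ecdysone synthesis in the prothoracic gland, the hairpin is at chr3L:642208-642288 in lncRNA:CR43334. A summit of 462 (219 and 249) lay 1436 bp upstream and one of 314 (169 and 141) lay 2028 bp downstream. Neither was within 1000 bp of an annotated start site, and no start site of the host had an optimal summit within 1000 bp. The nearest start site of the host was 1058 bp from the upstream summit, just beyond that limit.

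mir-317, mir-277 and mir-34 form 1 cluster by the rule used here, and the strong summit was at the first. mir-317, at chr3R:10091126-10091217, had a summit of 505 (267 and 241) at 3390 bp upstream, 4355 bp from the nearest annotated start site, that of lncRNA:CR45054. The hairpins of mir-277, which acts on the breakdown of branched-chain amino acids, and mir-34, which protects the ageing brain, lie within lncRNA:CR43459. Their nearest optimal summits were 9992 bp and 9079 bp away. Within 5000 bp each had 7 weaker peaks of the pooled list, the strongest of which had a signal of 76.4, against 80.0 for the weakest peak of the optimal set. The peak of 76.4 lay 2851 bp before mir-34 and 1937 bp before mir-277.

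The let-7 complex on arm 2L, which times neuromuscular remodelling and cell cycle exit at metamorphosis, had 1 optimal summit near its 3 hairpins, and it was weak. Its pooled signal was 100 (47.6 and 55.8), number 5107 of the pooled list. It lay 2636 bp before mir-100, 3236 bp before let-7 (mir-let7) and 3517 bp before mir-125, inside the host lncRNA:let7C. The start of that host, 13081 bp from the summit, had no optimal summit within 1000 bp. The other ecdysone-linked members without an optimal summit were mir-252, with a weaker peak of 52.4, and mir-965, with one of 64.1. For mir-965 the nearest optimal summit was 5037 bp away.

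Among 14 measured miRNAs of growth and cell death, 8 (57.1%, against 38.1% of all miRNA genes) had an optimal summit, and these 8 lie in 4 clusters. Most of the list, 12 of its 14 genes and all 8 of these, carries the seed AUCACAG, which pairs with sites in the messages of the death genes reaper, grim and sickle. Over the whole family with this seed, 9 of 14 genes had one, with signals between 80.3 and 437. The highest was at mir-2a-1, mir-2a-2 and mir-2b-2, a cluster in an intron of spi, the main ligand of the EGF receptor, where a summit of 437 (228 and 213) lay 348 bp from a start site of spi. It was 2986 bp, 3397 bp and 2694 bp before these hairpins, and a second summit, of 129 (66.2 and 62.9), lay 711 bp before mir-2b-2.

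The other members of this family had weaker summits. mir-13b-1, mir-13a and mir-2c shared 1 of 80.3 (37.0 and 31.3), number 6604 of the pooled list and so close to the limit of the optimal set. mir-2b-1, in an exon of Btk, a tyrosine kinase gene, had 1 of 92.7 after the hairpin, while a start site of Btk outside the window had a summit of 797. mir-11, in an intron of the cell cycle gene E2f1, had the summit of 295 at InR named above and one of 98.7 upstream. mir-308, in an intron of the ribosomal protein gene RpS23, had 248 (131 and 123) at 716 bp upstream, 2 bp from a start site of its host. mir-6-1, mir-6-2, mir-6-3 and mir-13b-2 had no peak of the pooled list within 5000 bp, and mir-278 and mir-263b had only weaker peaks, of 39.9 and 63.0. mir-263a was not analysed here.

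Of 9 miRNAs of neurons and sense organs, 7 in 6 clusters (77.8%, against 38.1% of all miRNA genes) had an optimal summit, among them the 4 genes mir-279, mir-996, mir-282 and mir-9a described above. This list, too, was drawn up with earlier results known, and it holds the loci with the strongest summits, so its share is a description. mir-7, which acts in photoreceptors and lies in an intron of HnRNP-K, had 1 of 211 (107 and 112) at 4882 bp upstream. mir-276a, which acts on a dopamine receptor in memory, had 1 of 117 (74.1 and 47.8), 187 bp from a start site of its host lncRNA:CR46006. Its relative mir-276b, which has the same mature seed, had 1 of 141 (67.9 and 72.7). These 3 were thus of ordinary strength beside a median of 142 over all summits near miRNA genes. mir-124, the neuronal miRNA, and mir-184 had only weak peaks, of 18.2 and 19.6, near the bottom of the pooled list, whose lowest signal near these genes was 16.2.

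All 6 miRNAs with the seed AUUGCAC had an optimal summit, against 38.1% of all miRNA genes, but they lie in only 2 clusters, and the signals of these differed. mir-92a, which keeps neuroblasts dividing and lies in an intron of jigr1, had a summit of 528 (281 and 253) at 455 bp after the hairpin, 191 bp from a start site of jigr1. The same summit lay 4343 bp before mir-92b, which also had one of 108 (54.4 and 54.2) at 120 bp after its hairpin. mir-310, mir-311, mir-312 and mir-313 lie in 1 cluster and shared a single summit of 99.6 near qsm, with 26.8 in replicate 1 and 71.8 in replicate 2. A second summit at jigr1, of 93.3 (27.8 and 62.8), lay 1563 bp after mir-92a and 3235 bp before mir-92b. At the weak summits of 99.6 and 93.3 the replicates thus differed more than 2-fold, and at those of 528 and 108 they were close.

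Among 4 miRNAs of metabolism and gut, 3 in 2 clusters had an optimal summit, 75% against 38.1% of all miRNA genes. mir-275 and mir-305, the second of which acts on insulin signalling and intestinal stem cells, lie next to each other at chr2L:7425795-7425892 and chr2L:7425972-7426044. A summit of 482 (216 and 272) lay 436 bp before mir-275 and 613 bp before mir-305, inside the non-coding host lncRNA:CR43857, and one of 324 (184 and 156) lay 160 bp from the start of this host. A summit of 392 (182 and 210) lay 4957 bp upstream. All 3 were in both replicates. This locus and that of mir-282 each held 3 summits above 300, more than the other loci named here. mir-375 had summits of 125, 124 and 130, the last at 673 bp after the hairpin. mir-33, in an intron of the lipid regulator SREBP, had only a weaker peak of 48.3.

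Of 4 Hox miRNAs, 1 (25%, against 38.1% of all miRNA genes) had an optimal summit within 5000 bp, and the 1 muscle miRNA had none. Lists this small allow only a description. mir-10, which lies between Hox genes, had 1 optimal summit of 114 at 2929 bp upstream, with 69.5 in replicate 1 and 37.9 in replicate 2. The start of its host, lncRNA:CR42651, had an optimal summit of 84.4 within 1000 bp, outside the window of the hairpin. mir-iab-4 and mir-iab-8, read from opposite strands of 1 place in the bithorax complex, shared a weaker peak of 32.8, and mir-993 had none. mir-1, the miRNA of muscle, had weaker peaks only, the strongest of 25.8, and its nearest optimal summit was 58218 bp away.

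The 21 miRNAs of clusters with expression biased to the testis had few summits. An optimal summit was near 2 of them (9.52%, against 38.1% of all miRNA genes), mir-991 and mir-992, and this was the summit of 99.6 shared with the mir-310 cluster. In 5, the cluster of mir-982, mir-303, mir-983-1, mir-983-2 and mir-984, the 1 weaker peak had a signal of 72.5 and lay 121 bp before mir-303. The other 14, in the clusters of mir-959 to mir-964 and of mir-972 to mir-979, had no peak of the pooled list within 5000 bp. The nearest optimal summit was 79556 bp from mir-959 and 45429 bp from mir-972. These genes lie close together in a few clusters, so they stand for few independent places.

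At a further group of loci a summit lay at the start site of a protein-coding host, though some also had summits elsewhere. mir-4943 had 635 (336 and 300) at 4788 bp upstream, 402 bp from a start site of its host CG5953, and mir-4972 had 629 (292 and 350) at 4483 bp downstream, 330 bp from a start site of its host for, a cGMP-dependent protein kinase gene of foraging behaviour. mir-966 had 271 (146 and 125) at 398 bp upstream, 61 bp from a start site of the purine synthesis gene Pfas. mir-4949 had 119 (71.7 and 49.8) at 164 bp upstream, 23 bp from a start site of ATPsynC. Its strongest summit, of 198 (103 and 95.3), lay 3197 bp upstream, 1867 bp from the nearest start site, that of CG12054. mir-4943 also had one of 243 (133 and 129) at 2244 bp downstream, 5954 bp from the nearest start site. mir-4955 had 85.4 (44.3 and 37.3), 37 bp from a start site of trol, and mir-4985 had 100 (53.1 and 46.8), 114 bp from one of Fatp3. At all 6 the summit named first lay within 500 bp of a start site of the gene that holds the hairpin.

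Only mir-4962, in an intron of the kinase gene Tlk, had an optimal summit inside the hairpin itself, among the 260 genes. Its signal was 223 (128 and 98.4), and 4 more summits, of 96.8 to 359, lay within 5000 bp, all in both replicates. Within 200 bp of a hairpin there were optimal summits for 7 genes. Besides mir-4962, mir-282, mir-92b and mir-4949, these were mir-4975 with 124 (66.5 and 68.3) at 71 bp upstream, mir-2491 with 104 (43.6 and 56.0) at 150 bp upstream, and mir-11182 with 90.6 at 74 bp downstream. The summit of mir-11182 had no partner within 100 bp in either replicate list. Optimal summits next to a hairpin were thus few, and apart from mir-4962 their signals were below the median of the optimal set, 137.

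The remaining genes with a summit within 1000 bp had moderate signals. mir-9377, in an intron of Tis11, a gene of messenger RNA decay, had 260 (128 and 129) at 329 bp downstream, 5063 bp from the nearest start site. mir-4981 had 234 (110 and 124) at 833 bp upstream, and mir-2496 had 154 (61.5 and 98.9) at 554 bp upstream. mir-4912 had 128 (66.6 and 61.7), mir-4968 had 91.2 (51.8 and 36.6) and mir-4957 had 85.2 (44.7 and 38.3) at this distance. mir-4957, outside genes on its strand, had a stronger summit farther away, of 398 (199 and 201). mir-9377, mir-2496 and mir-4968 also had stronger ones farther away, of 294 (150 and 144), 241 (130 and 109) and 127 (60.1 and 63.5). mir-955, likewise outside genes on its strand, had no optimal summit within 1000 bp. Its nearest was 1436 bp away, and its strongest, of 391 (195 and 201), was 4009 bp away. Both replicates had each summit named so far in this paragraph. A further summit of mir-4968, of 80.7 at 624 bp upstream, had a partner within 100 bp in replicate 1 only.

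Genes with a weaker peak only, those of the pooled list outside the optimal set, numbered 70. This lay inside the shift range of 61.0 to 103, with a mean of 81.8. The count leaves out genes with an optimal summit, 99 here against a shift mean of 73.7. No peak of the pooled list lay within 5000 bp of 91 genes. In all, 169 of 260 miRNA genes had a peak of some strength. The weaker peaks reached from 16.2 to 80.0 in signal, and many of them are background by the design of the list. By arm, 25 of 56 miRNA genes on 2L, 22 of 55 on 2R, 11 of 31 on 3L, 25 of 58 on 3R, 0 of 2 on chromosome 4 and 16 of 58 on X had an optimal summit. The share was lowest on X among the large arms, at 27.6%. Shares by arm were not set against the density of optimal peaks on each arm. The cluster of 12 hairpins with no summit also lies on X, and its part in this share was not tested. At the edge of the window, mir-1005 at 4977 bp was the last gene inside, and mir-965 at 5037 bp the first outside.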

How the data were processed

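The authors deposited peak lists on dm6 for each replicate, for the pooled replicates and for the set that passed IDR. Calling used a control alignment, per the deposited README texts. No aligner, peak caller or IDR threshold is named in the sources used here. The unit used is the peak signal of the deposited lists, whose scale is not stated, with the summit taken as peak start plus the deposited offset. The lists hold no read counts, so the depth is unknown and no interval was computed. The optimal set was the 6635 strongest of the 30000 pooled peaks. The lists on the older build dm3 were not used.

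Genes came from Ensembl release 115 (BDGP6.54) and mature miRNAs from RefSeq. Distances run from the summit to the nearest hairpin end. Summits were shifted around each arm in 1000 equal steps, as a description. Replicate summits were matched within 100 bp. The counting code was run on made-up summits at random positions with some planted near hairpins, which does not test the difference from the shifts. Python 3.11.15, numpy 2.4.6, pandas 2.3.3 and matplotlib 3.10.9 were used.

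Members, lists and alternatives were chosen with earlier results of these data known. Genes were named if they had a summit within 1000 bp, were among the 20 with the highest signal within 5000 bp, or were on a list of miRNAs by role. Others named (the mir-310 cluster, mir-9b, mir-9c, mir-286, mir-1005) and 5 of the sequence windows were chosen after their values were seen. The annotation names let-7 and bantam mir-let7 and mir-ban, so the rule holds them and they are counted here, although the plan had set them aside; without them 5 of 9 ecdysone-linked miRNAs had a summit.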

Additional observations from a re-analysis of the deposited data

How the results depend on the processing

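With a window of 1000 bp, 25 genes and 23 clusters had an optimal summit and the median signal of the strongest summit was 130; with 2000 bp these were 47, 36 and 129, and with 10000 bp the median was 205. With peaks at or above the median signal only, 57 genes (shift range 30 to 66) and 49 clusters (26 to 48) had a summit, with a median signal of 258, so the gene count no longer stood above the shifts. Counting downstream summits only, an alternative chosen after seeing the data, gave 52 genes. With the 15000 strongest pooled peaks, 37 genes had a weaker peak only. Leaving out 1 replicate, that is using the strongest peaks of the other's list alone, gave 93 to 97 genes and 77 to 79 clusters. The 93 genes, without replicate 2, lay inside the shift range of 55 to 96. Leaving out 1 replicate also gave a median signal of 83.9 to 95.9, which is on the scale of a replicate list. The other 23 values tried stayed within 1.5 times the main count or close to the main value, among them 102 genes by peak interval, 72 to 87 hairpins with a bound host, and 107 to 141 summits in both replicates. The 107 came from the strongest peaks of each replicate list only. No paired analysis was possible because there is 1 group. The lists cannot show how many cells carry a peak, and no input or mock precipitation was analysed here.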
